A study of Mus musculus with 12 samples.

Results

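The injury response of the liver 3 days after a single CCl4 injection was compared between WT mice and NS-KO mice, which lack NSun2, in 8 of 12 tsRNA-seq libraries. The measure was the change from D0 to D3 in NS-KO minus the same change in WT, on the log2 scale, called the interaction here. A positive interaction means that a fragment changed more upward in NS-KO than in WT. The mice were males of the strain B6D2F1/Crl, given as 8-12 week old in one label and as 9-12 week old in another. WT D0 and NS-KO D0 received the corn oil vehicle, and WT D3 and NS-KO D3 were taken 3 days after CCl4 diluted in corn oil was injected into the peritoneum. Each group had 2 libraries, described as independent biological replicates. NS-KO carries a CRISPR/Cas9 deletion in exon 2 of NSun2 that is not limited to a cell type by a Cre driver, so the liver cell type in which the loss acts is not resolved. The other 4 libraries (WT D27 and NS-KO D27, after repeated CCl4) entered the fit only to estimate the spread and are given for comparison. The reads were aligned to tRNAs, so neither NSun2 RNA nor liver marker genes can be read from these libraries to check the labels.

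tsRNAs are short RNAs cut from tRNAs or their precursors. NSUN2 is a methyltransferase that places 5-methylcytosine on many tRNAs, and tRNAs without this mark are known to be cut more readily by the ribonuclease angiogenin. The subtypes used by the authors name the part of the tRNA that is kept. A tRF-1 is the 3′ trailer that RNase Z releases from a precursor tRNA, and the trailers of nuclear tRNAs end in the run of T at which RNA polymerase III stops. The authors' tRF-1 subtype also holds mitochondrial sequences. tRF-5a, tRF-5b and tRF-5c start at the 5′ end and grow longer in that order, tRF-3a and tRF-3b hold the CCA end of the mature tRNA, and tiRNA-5 and tiRNA-3 are the pieces on each side of a cut in the anticodon loop. Reads that fit none of these positions are "Other", which includes fragments from inside a tRNA. Mitochondrial tRNAs (mt-) are transcribed as part of long RNAs from both strands of the mitochondrial genome and are released by mitochondrial RNase P and RNase Z. CCl4 is turned into radicals by cytochrome P450 enzymes in hepatocytes and kills those around the central vein.

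Fragments that carry the result are printed here 5′ to 3′ with T in place of U, as in the table. The first group is the 5′ fragment of 31 nt from nearly identical glycine tRNAs, shown because the sums of the Gly-CCC and Gly-GCC forms were called and the sum of the shared form was not. The differences among the 3 were not tested. The printed forms are perfect matches and not the most read of their sums. In each of the 3 sums the most read form has a mismatch, a T as its last base. For Gly-CCC that form had 1286 and 378 reads in NS-KO D3, against 1030 and 340 for the printed one. Capitals mark the bases that differ among the 3, counted from 1 at the 5′ end. Against Gly-CCC/Gly-GCC the Gly-CCC fragment has G9A and G15A, and the Gly-GCC fragment has T5G.
Gly-CCC: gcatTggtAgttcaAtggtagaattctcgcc
Gly-CCC/Gly-GCC: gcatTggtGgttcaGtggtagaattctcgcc
Gly-GCC: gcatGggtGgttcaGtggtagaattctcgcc

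The first comes from tRNA-Gly-CCC-2-1 (chr3:96351167-96351237), the last from tRNA-Gly-GCC-1-1 (chr1:171066631-171066701), and the middle one is shared by 11 tRNA genes. Coordinates are those of the deposited table, and 377 of its 439 nuclear precursors hold a tRNA gene of the RefSeq annotation of GRCm38.

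The second group holds the most read tRF-1 of isodecoders whose trailers rose in NS-KO, and that of the initiator methionine tRNA, whose trailer moved the other way. Capitals mark the closing run of T.
tRF-1 Asp-GTC: tctggacacatgtggcTTTT
tRF-1 Gln-CTG: ttggtgtcaggctagTTTT
tRF-1 Gly-CCC: gtacctctctgTTT
tRF-1 Lys-TTT: gaaaggtgatcgTTT
tRF-1 Met-CAT: tcggaggctttgTTTT

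The Asp-GTC trailer comes from the precursor of tRNA-Asp-GTC-1-11 (precursor chr13:21911273-21911424), the Gln-CTG trailer from tRNA-Gln-CTG-3-2 (precursor chr3:96399019-96399170) and the Lys-TTT trailer from tRNA-Lys-TTT-2-2 (precursor chr13:21907900-21908052). The Gly-CCC trailer comes from tRNA-Gly-CCC-2-1, the same gene as the Gly-CCC 5′ fragment above. The Met-CAT trailer comes from tRNA-iMet-CAT-1-1 (chr3:90475860-90475931).

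The third group shows mitochondrial fragments, of which the first 4 lie inside the mature tRNA, the fifth starts at its first base and the last lies outside it. Capitals mark the anticodon where the fragment holds it.
mt-His-GTG: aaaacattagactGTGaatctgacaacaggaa
mt-Cys-GCA: aattGCAaattcgaaggtgtaga
mt-Ala-TGC: aatagatgtaggatgaagtct
mt-Pro-TGG: ctggtggtggggagtagct
mt-Ser-TGA: gagaaagacatataggatatga
mt-Val-TAC: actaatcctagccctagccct

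They span positions 18 to 49 of mt-His (chrM:11545-11612), 25 to 47 of mt-Cys (chrM:5192-5257), 38 to 58 of mt-Ala (chrM:5018-5086), 37 to 55 of mt-Pro (chrM:15356-15422) and 1 to 22 of mt-Ser-TGA (chrM:6870-6938). The mt-Val fragment lies in the precursor directly after the last base of mt-Val (chrM:1025-1093), at precursor positions 110 to 130.

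The libraries held 46937 to 266322 reads in the 8 libraries compared. Both NS-KO D3 libraries stood apart from the other 10, with 32656 and 25470 distinct sequences against 9758 to 16015. The WT D3 libraries differed from each other, with 35.6% and 61.5% of reads in tRF-5c against 71.5% and 64.4% at WT D0. Scale factors computed by the trimmed mean of M values (TMM), which assume that most sequences did not change, ran from 0.476 to 1.79 over the 12 libraries. Levels below are reads per 1000000 reads of a library (CPM) with library size as the only scaling, and changes are on log2 CPM with the TMM factors unless stated. Since tissue RNA was sequenced in bulk, a shift in which cells make up the injured liver and a shift in RNA per cell cannot be told apart.

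Reads were summed by subtype and isodecoder, the name of a tRNA's amino acid and anticodon, and 281 sums were tested with limma at an adjusted p under 0.05. In the interaction 30 sums (10.7%) were higher and 5 (1.78%) were lower in NS-KO, with 49 and 24 at an unadjusted p under 0.05. Of the 30, 19 were mitochondrial, 5 were tRF-1, 5 were nuclear 5′ fragments and 1 was nuclear Other. With TMM scaling both NS-KO D3 libraries lay above all other 10 in 27 of these 30 sums and in 54 (19.2%) of all 281. The 30 were chosen by a contrast that uses these libraries, so nothing is read from the 27. Within WT 1 sum (0.356%) was higher and none lower at D3 than at D0, with 17 and 2 at an unadjusted p under 0.05. Within NS-KO 44 (15.7%) were higher and 11 (3.91%) lower. The limma count of 35 fell to 11 without NS-KO D0 replicate 2, to 14 without WT D0 replicate 1, and to 22 without WT D0 replicate 2 or WT D3 replicate 1. The number of calls in each direction turned with the scaling. With library size only, 14 sums (4.98%) were higher and 51 (18.1%) were lower, and the median interaction of all sums moved from 0.03 to -1.33. With the reads outside tRF-5c as totals, 17 (6.05%) were higher and 9 (3.2%) lower. All 5 lower sums and 14 of the 30 higher ones were called in the same direction under these 3 scalings, and none was called in the opposite direction.

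**Figure D1:**
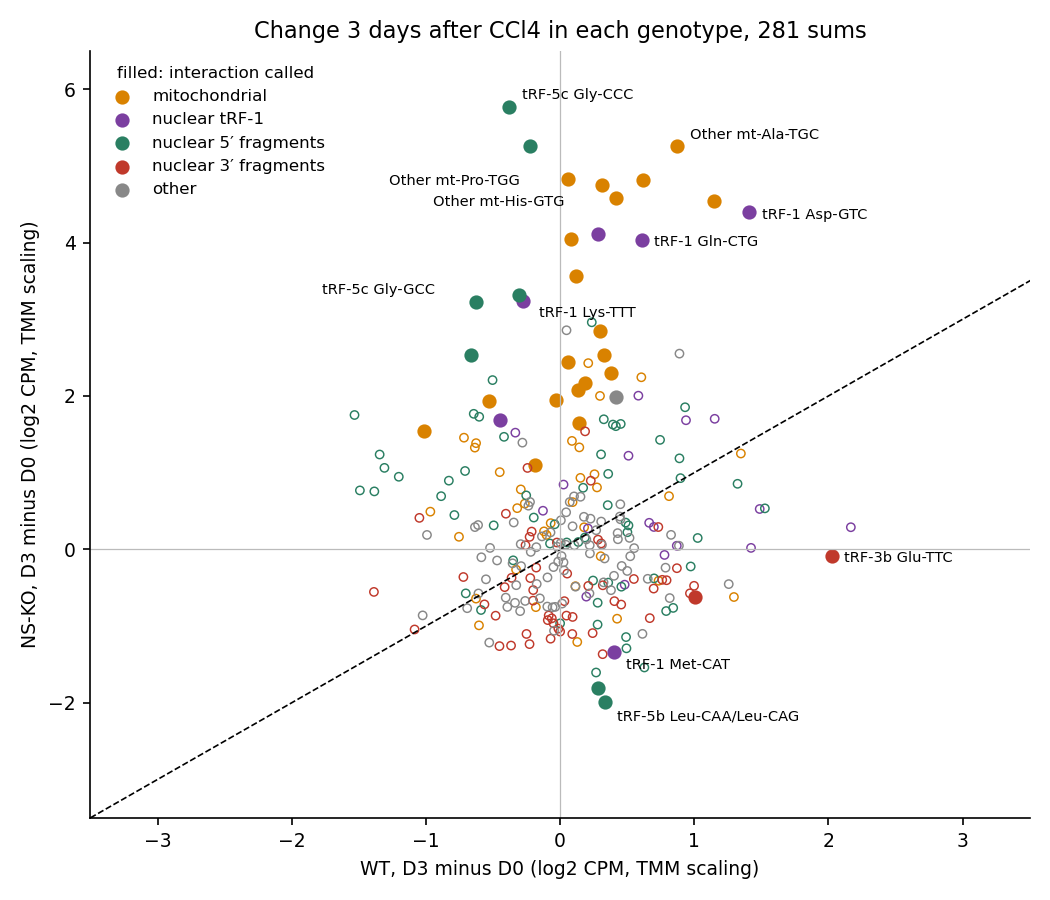
Change from D0 to D3 on log2 CPM with TMM scaling in WT (x axis) and NS-KO (y axis) for the 281 sums, coloured by class, where filled points were called in the interaction and the dashed line marks equal change. The 30 sums called higher lie above the line with NS-KO changes up to 5.77, and the 5 called lower lie below it.

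Mitochondrial tRNAs gave 19 of the 30 higher sums. Of 53 mitochondrial sums, 19 (35.8%) were higher and none lower, against 10.7% and 1.78% of all sums. Their median interaction was 1.33 against 0.03 for all sums. Library size alone as scaling gave 7 higher, 5 lower and a median of 0.10. Among the Other sums of 21 mitochondrial tRNAs, 12 (57.1%) were higher and none lower (5 higher and 1 lower by library size only). With TMM scaling both NS-KO D3 libraries lay above the other 10 in 19 of the 21, against 54 (19.2%) of all 281 sums. This was not counted on CPM by library size only.

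mt-His-GTG, the histidine tRNA, had Other reads at 2148 and 2954 CPM in WT D0 and 6784 and 4452 CPM in WT D3. In NS-KO they went from 6623 and 6626 CPM at D0 to 59288 and 148590 CPM at D3. The NS-KO D3 libraries did not overlap with any other group, and the NS-KO D27 libraries were at 15647 and 19108 CPM. The interaction was 4.16 ± 0.50 (log2, SE, limma adjusted p = 0.000961, n = 2 libraries a group), with 2.70 under library size only. This sum held 5586 distinct sequences, and its most read one made up 1.33% of its reads. The fragment printed above had 0 reads in both NS-KO D0 libraries, 0 and 4 in WT D3, and 180 and 283 in NS-KO D3.

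mt-Pro-TGG, the proline tRNA, had the smallest p of all sums. Its Other reads were at 154 and 204 CPM in WT D0 and 368 and 248 CPM in WT D3. They were at 593 and 426 CPM in NS-KO D0 and 6552 and 12001 CPM in NS-KO D3. The interaction was 4.77 ± 0.57 (limma adjusted p = 0.000961), with a WT change of 0.06 and an NS-KO change of 4.83.

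mt-Ala-TGC is the alanine tRNA. Its Other reads were at 282 and 279 CPM in WT D0 and 650.2 and 1107 CPM in WT D3. They were at 734 and 660.5 CPM in NS-KO D0 and 10675 and 25038 CPM in NS-KO D3, with an interaction of 4.39 ± 0.84 (limma adjusted p = 0.0083). Both WT D3 libraries lay above both WT D0 libraries, and the WT change of 0.87 did not pass the test. Without NS-KO D0 replicate 2 the interaction was 4.15 (limma adjusted p = 0.0577).

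The other mitochondrial tRNAs with called Other sums covered a wide range. mt-Ser-TGA, 1 of the 2 mitochondrial serine tRNAs, had 3.45 (limma adjusted p = 0.00333) and went from 2316 and 3814 CPM to 14198 and 30693 CPM in NS-KO. mt-Asn-GTT had 3.40 (limma adjusted p = 0.00557), mt-Met-CAT 2.21 and mt-Gly-TCC 1.97, and these lost the call under library size only, at 2.06, 0.78 and 0.51 (limma adjusted p = 0.0692, 0.449 and 0.576). mt-Met-CAT and mt-Gly-TCC also lost it with reads outside tRF-5c as totals (limma adjusted p = 0.0557 and 0.0878) and when libraries were thinned to the smallest one (0.258 and 0.132). mt-Gly-TCC lost it as well without WT D0 replicate 1 or NS-KO D0 replicate 2 (limma adjusted p = 0.0595 and 0.0577). mt-Cys-GCA, outside the rule for named sums and picked for its fragments, had 4.19 (limma adjusted p = 0.0115). At the low end were the Other sums of the most read mitochondrial tRNAs. Most reads of the mt-Val-TAC sum were found in the precursor only, as given below. mt-Ser-GCT had an interaction of 0.29 (limma adjusted p = 0.825, 95% interval -1.07 to 1.64) and mt-Val-TAC of -0.39 (limma adjusted p = 0.697, 95% interval -1.57 to 0.80). Under library size only mt-Val-TAC was called lower, at -1.85.

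The strand that encodes a mitochondrial tRNA was set against its interaction after the values had been seen. All 7 tRNAs of the light strand in this list were called higher (median 3.45, range 1.92 to 4.77), against 5 of 14 of the heavy strand (median 1.24, range -0.39 to 4.16). mt-His-GTG was the heavy-strand tRNA with the highest value. With library size only, 4 of the 7 and 1 of the 14 were called higher. This split is a description of these tRNAs and was not tested.

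**Figure D2:**
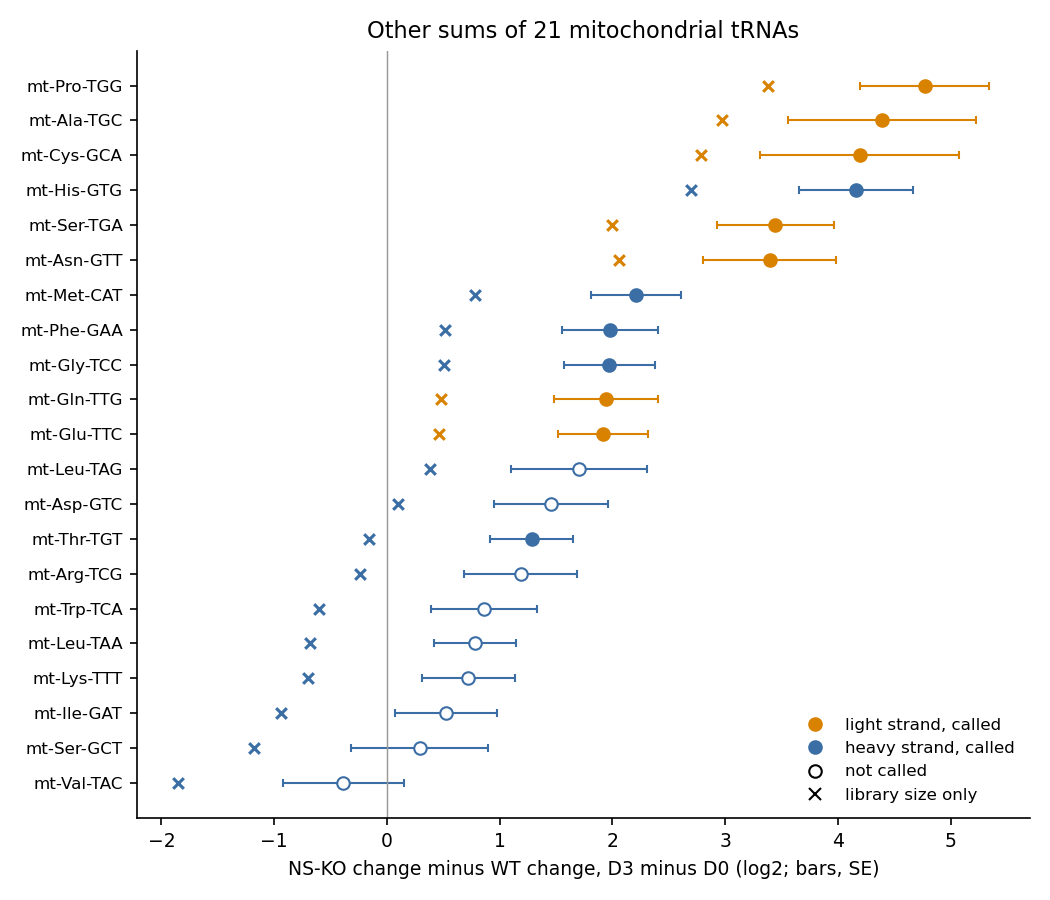
Interaction of the Other sums of 21 mitochondrial tRNAs (x axis, log2, bars are SE), with circles for TMM scaling, filled where called, and crosses for library size only. Light-strand tRNAs (orange) lie at 1.92 and above with TMM scaling, and mt-Ser-GCT and mt-Val-TAC lie lowest.

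In mt-His, mt-Ala, mt-Pro and mt-Val, coverage of the mature tRNA in NS-KO D3 was highest in its interior. Coverage of mt-His peaked at position 32, within the anticodon at 31 to 33, at 59568 and 149000 CPM in the NS-KO D3 libraries. It was highest at 32 to 34 in the other 10 libraries too, so the place of this peak was not particular to NS-KO D3. In NS-KO D3 the peak lay at position 47 in mt-Ala, 43 in mt-Pro and 55 in mt-Val. In the other 10 libraries coverage was highest within positions 46 to 51 in mt-Ala and 52 to 62 in mt-Val. These 2 places were thus not particular to NS-KO D3 either, while in mt-Pro the place varied among the other libraries. Of the reads over mature mitochondrial tRNAs, 50.4% and 63.7% in NS-KO D3 neither started at the first base nor reached the last 3 bases. This share was 11.7% to 20.1% in the other 10 libraries, so the groups did not overlap. The share that started at the first base was 41.1% and 28.8% in NS-KO D3 and 69.05% to 74.4% in the other 10. These shares pool all mitochondrial tRNAs, so they also depend on which tRNAs gave the reads. mt-Ser-GCT, whose most read Other fragment starts at the first base, gave 13123 of 17693 and 6598 of 9595 mature reads in NS-KO D0. In NS-KO D3 it gave 25549 of 67113 and 13777 of 63727. A shift within single tRNAs was not set apart from this change in mix.

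For mt-Val-TAC, reads on the mature part and reads in the precursor only were set apart after the values had been seen, and their difference was not tested. Reads on the mature part went from 4392 and 3537 CPM at D0 to 7957 and 14980 CPM at D3 in NS-KO, and from 728 and 972 CPM to 2638 and 1484 CPM in WT. Reads found in the precursor only, such as the printed fragment after the tRNA's last base, went from 151800 and 191900 CPM to 37940 and 44030 CPM in NS-KO. In WT they were at 50530 and 61970 CPM at D0 and 85370 and 40890 CPM at D3, which overlapped. The alignment does not tell whether such reads come from a tRNA precursor or from a neighbouring RNA of the same transcript. The printed fragment itself had an interaction of -1.31 ± 0.28 (limma over fragments, adjusted p = 0.0252), with 2272 and 1992 reads in NS-KO D0 and 1224 and 777 in NS-KO D3. This call ended when the 8 libraries were fitted alone (limma adjusted p = 0.71), with thinned libraries, stricter CPM filters or TMM factors from nuclear sequences (0.0756 to 0.238), and when any 1 of 7 libraries, all but NS-KO D3 replicate 1, was left out (limma adjusted p of 0.0523 to 0.496).

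**Figure D3:**
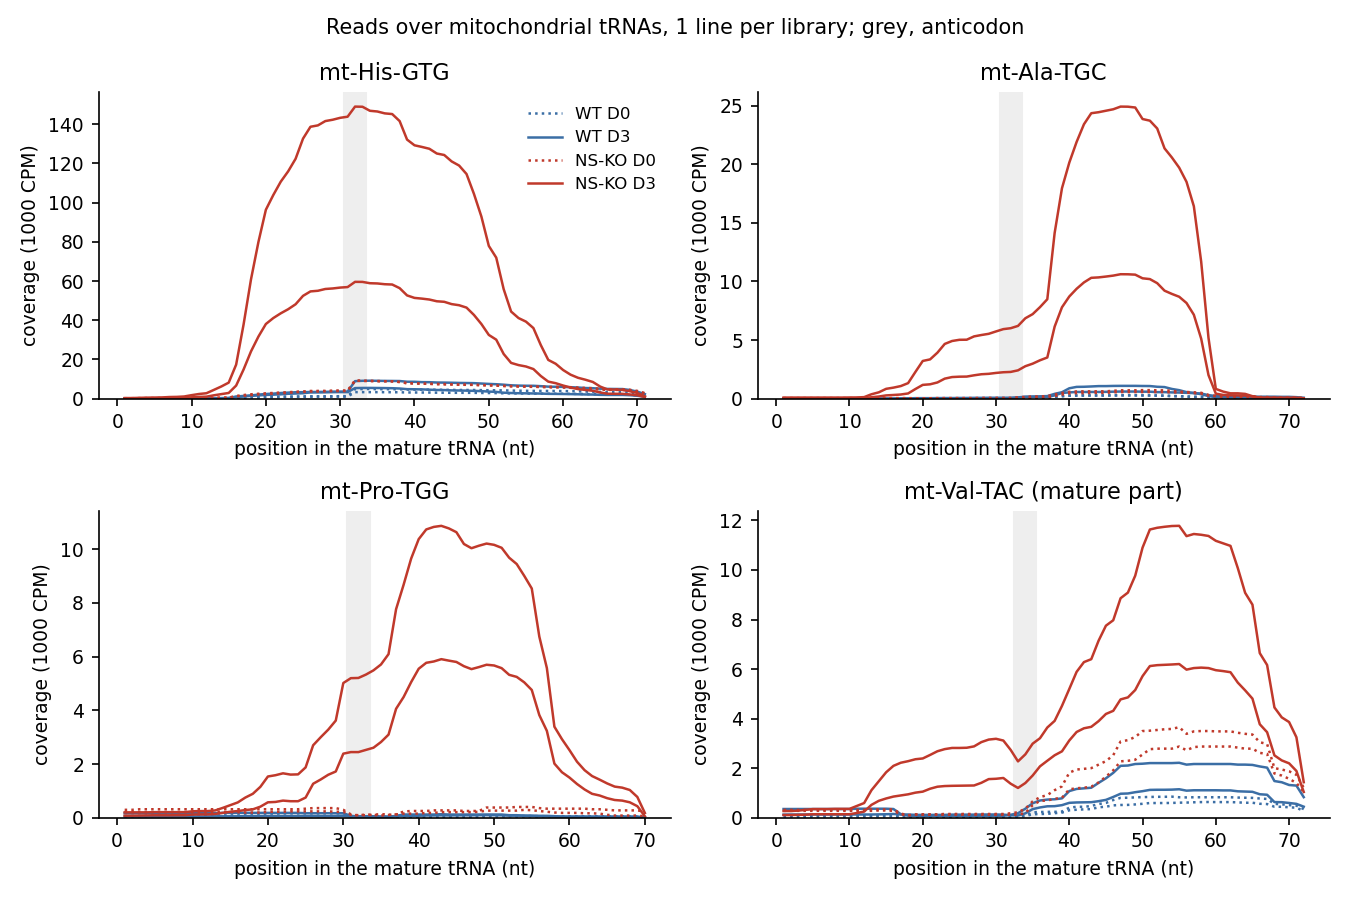
Coverage in units of 1000 CPM (y axis) along 4 mature mitochondrial tRNAs (x axis, nt from the 5′ end), 1 line a library, WT blue and NS-KO red, D0 dotted and D3 solid, with the anticodon shaded. The solid red NS-KO D3 lines rise in the interior, to 59568 and 149000 CPM in mt-His.

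Fragments that start at the 5′ end of mitochondrial tRNAs were called as well. tRF-5b of mt-Ser-TGA, whose most read sequence is printed above, was at 37.5 and 80.5 CPM in WT D0 and 172 and 77.6 CPM in WT D3. It was at 169 and 234 CPM in NS-KO D0 and 2294 and 5576 CPM in NS-KO D3, with an interaction of 4.44 ± 0.69 (limma adjusted p = 0.00333). tRF-5b of mt-Gln-TTG had 3.96 (limma adjusted p = 0.00333) and its tRF-5c 2.38 (limma adjusted p = 0.0102). The tRF-5c call was lost under library size only, with reads outside tRF-5c as totals, with thinned libraries and without NS-KO D0 replicate 2 (limma adjusted p = 0.372, 0.0694, 0.110 and 0.0577). The tRF-5b of mt-Gln-TTG was low at D0, with 70.6 and 128 CPM in NS-KO against 876 and 1555 CPM at D3.

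Among nuclear 5′ fragments, 5 of 65 (7.69%) were higher and 2 (3.08%) lower, near the 10.7% and 1.78% of all sums. Their median was 0.37, and library size only gave 4 higher and 11 lower. The 5′ fragments of glycine and glutamate tRNAs are abundant in many mouse tissues. Of 14 sums of Gly-GCC, Gly-CCC and Glu-CTC, 13 had a positive interaction, 3 (21.4%) were called higher and none lower, with a median of 2.01, and library size only gave 3 higher and 1 lower.

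tRF-5c Gly-CCC had the largest interaction of the 281 sums. It was at 1633 and 1802 CPM in WT D0 and 1521 and 3009.7 CPM in WT D3. It was at 734 and 490 CPM in NS-KO D0 and 26639 and 15182 CPM in NS-KO D3. At D0 both NS-KO libraries lay below both WT libraries, and at D3 both lay above. The interaction was 6.15 ± 0.98 (limma adjusted p = 0.00333), and 4.72 with library size only. The NS-KO D27 libraries were at 1384 and 661 CPM. The longer 5′ piece of the same tRNA, tiRNA-5 Gly-CCC, which is outside the rule for named sums, had an interaction of 5.47 (limma adjusted p = 0.0143).

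tRF-5c Gly-GCC was at 26134 and 24374 CPM in WT D0 and 20328 and 35071 CPM in WT D3. In NS-KO it went from 8628 and 7116 CPM to 59012 and 31769 CPM, with an interaction of 3.85 ± 0.96 (limma adjusted p = 0.0257). NS-KO D3 overlapped with WT D3 in this sum. This call was lost without WT D0 replicate 1, WT D3 replicate 1, NS-KO D0 replicate 1 or NS-KO D0 replicate 2 (limma adjusted p = 0.116, 0.069, 0.0577 and 0.113), and also with the 8 libraries fitted alone (0.0535) or perfect matches only (0.0613).

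The fragment shared by Gly-CCC and Gly-GCC tRNAs holds the most reads of all sums. It was at 582140 and 507980 CPM in WT D0 and 270980 and 472410 CPM in WT D3, a change of -1.31 that did not pass the test. In NS-KO it was at 84414 and 70179 CPM at D0 and 131230 and 68423 CPM at D3, which overlapped. Its interaction of 2.37 was not called (limma adjusted p = 0.207, 95% interval -0.06 to 4.80).

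A ratio within a library does not depend on the scaling between libraries. For each 1000 reads of the shared tRF-5c, Gly-CCC had 2.81 and 3.55 reads in WT D0 and 5.61 and 6.37 in WT D3. It had 8.70 and 6.98 in NS-KO D0 and 203.0 and 221.9 in NS-KO D3. These ratios were chosen after the values had been seen and have no test.

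tRF-5c of valine tRNAs were higher too. tRF-5c Val-CAC went from 367 and 319.6 CPM to 1959.8 and 2364 CPM in NS-KO and was at 454 and 502 CPM and 539.8 and 719 CPM in WT D0 and D3. Its interaction was 3.62 ± 0.71 (limma adjusted p = 0.00979), and the call was lost without WT D0 replicate 1 or NS-KO D0 replicate 2 (limma adjusted p = 0.0521 and 0.0577). tRF-5c Val-AAC, outside the rule for named sums, had 3.19 (limma adjusted p = 0.0125). tRF-5c Glu-CTC, also among the most read, had an interaction of 2.58 (limma adjusted p = 0.191, 95% interval 0.0047 to 5.16), and Other Glu-CTC of 1.18 (limma adjusted p = 0.546). tRF-5c Glu-CTC overlapped between D0 and D3 in NS-KO, and Other Glu-CTC did so in WT. The tRNAs Asp-GTC, Gly-GCC and Val-AAC, which carry 5-methylcytosine placed by DNMT2 as well, had 3 of 32 sums (9.38%) higher, near the 10.7% of all sums, and none lower, with a median of 0.34, and 1 higher and 4 lower by library size only.

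**Figure D4:**
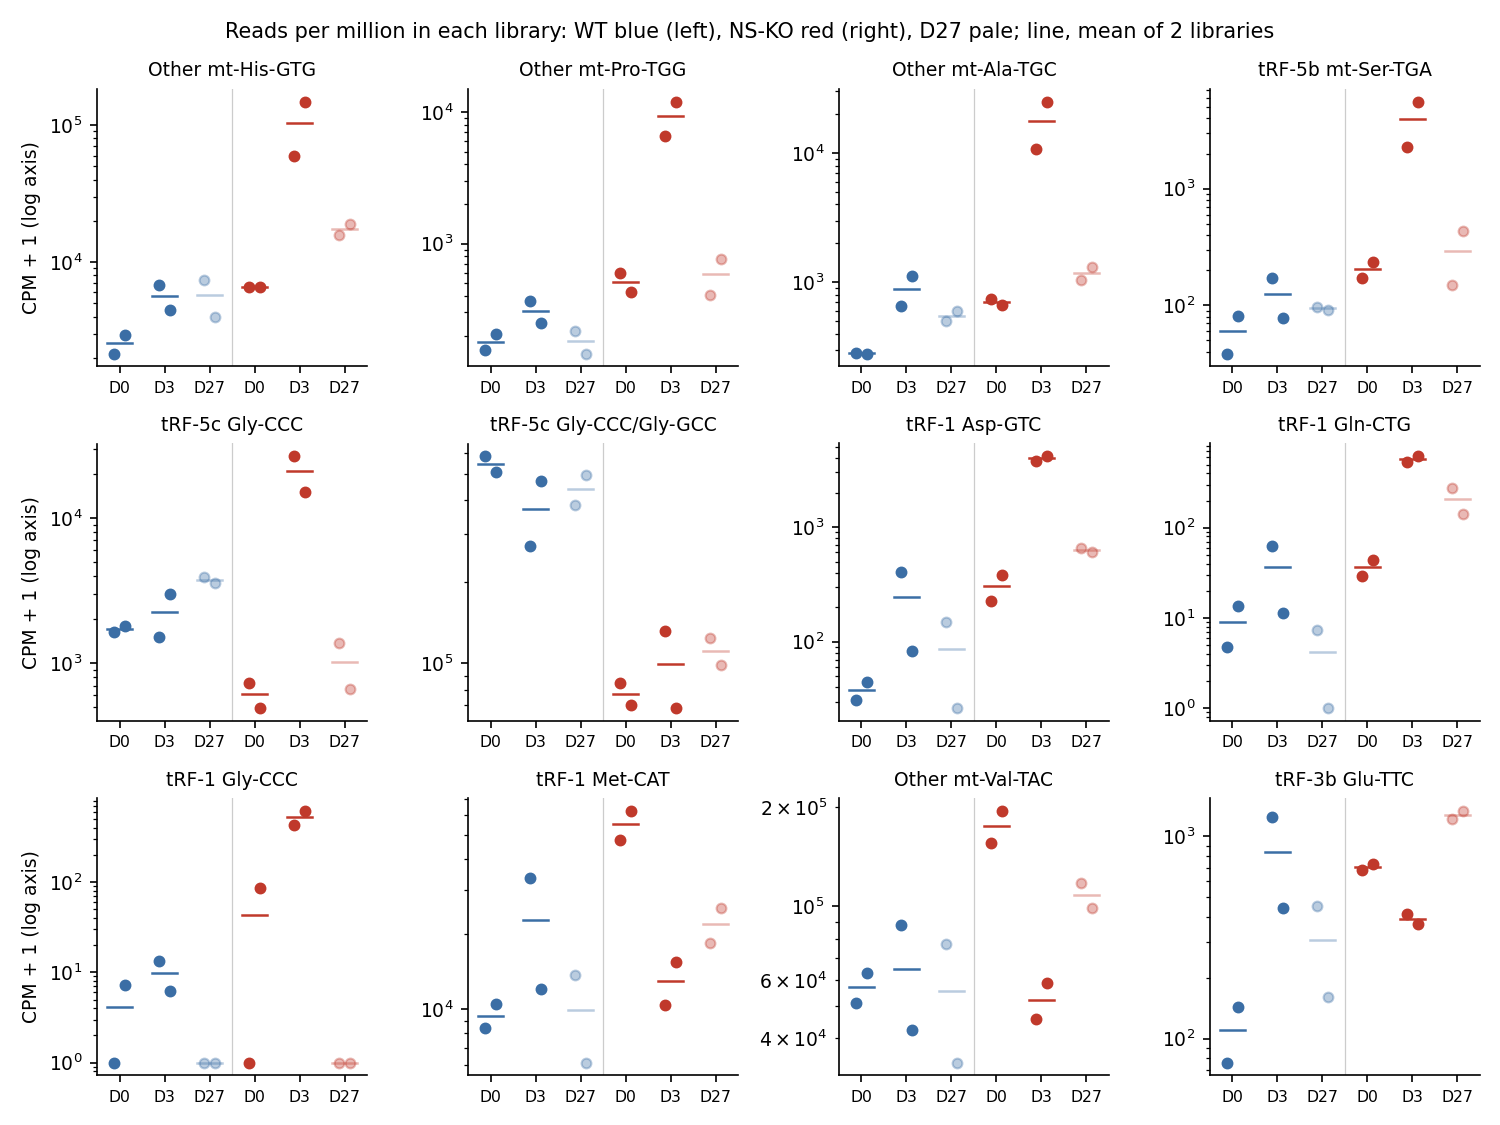
CPM plus 1 on a log axis (y axis) of 12 sums in each of the 12 libraries by day (x axis), WT in blue on the left and NS-KO in red on the right of each panel, D27 pale, with the line at the mean of 2 libraries. NS-KO D3 stands above every other group in the mt-His, mt-Pro, mt-Ala, mt-Ser-TGA, tRF-5c Gly-CCC and the tRF-1 Asp-GTC, Gln-CTG and Gly-CCC panels, but not in the tRF-1 Met-CAT panel.

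Precursor trailers were called in both directions. Of 26 tRF-1 sums, 3 of them mitochondrial, 5 (19.2%) were higher and 1 (3.85%) was lower in the interaction. Of all sums 10.7% were higher and 1.78% lower. The median of the tRF-1 sums was -0.03. Scaled by library size only, 3 were higher, 8 were lower and the median was -1.26. tRF-1 Ala-TGC was among the 5 higher sums, at 2.13 (limma adjusted p = 0.0394).

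tRF-1 Asp-GTC was at 30.04 and 43.3 CPM in WT D0 and 405 and 82.7 CPM in WT D3. In NS-KO it went from 226 and 383 CPM to 3775 and 4155 CPM. It was higher at D3 in both genotypes in every library, and the interaction was 2.98 ± 0.71 (limma adjusted p = 0.0191). It was not called with library size only, at 1.69 (limma adjusted p = 0.142), or with reads outside tRF-5c as totals (0.0775). The call was also lost without either WT D0 library, either NS-KO D0 library or WT D3 replicate 2 (limma adjusted p of 0.0522 to 0.0788).

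tRF-1 Gln-CTG was at 3.75 and 12.4 CPM in WT D0, 61.3 and 10.3 CPM in WT D3, 28.2 and 42.6 CPM in NS-KO D0 and 533 and 620.5 CPM in NS-KO D3. Its interaction was 3.43 ± 0.62 (limma adjusted p = 0.00637), and NS-KO D27 was at 277 and 139 CPM. The fragment the study names tRF-Gln-CTG-026 is 1 T shorter than the one printed above. It had 5 and 6 reads in NS-KO D3 and 0 in the other 10 libraries, so it met the CPM filter through NS-KO D3 alone. Its fitted interaction of 1.64 (limma over fragments, adjusted p = 0.0202) depends on the prior count. With library size only the adjusted p was 0.0948. The second fragment named by the study, tRF-Met-CAT-049, had at most 2 reads in any library and was not called (limma adjusted p = 0.594).

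tRF-1 Gly-CCC, from the same gene as the Gly-CCC 5′ fragment, was at 0 and 6.19 CPM in WT D0, 12.3 and 5.17 CPM in WT D3, 0 and 85.2 CPM in NS-KO D0 and 424 and 620.5 CPM in NS-KO D3. Its interaction was 3.83 ± 0.77 (limma adjusted p = 0.0102), and both NS-KO D27 libraries had 0 reads. Outside NS-KO D3 only NS-KO D0 replicate 2, with 4 reads, reached the CPM set for testing. The sum was therefore tested only because of NS-KO D3, and nothing is read from its p. With a prior count of 0.5 the limma adjusted p was 0.103, and with voom weights 0.0552. tRF-1 Lys-TTT had 0 reads in NS-KO D0 and WT D3 and 99.3 and 173 CPM in NS-KO D3. Set against a floor of 3 reads a library, NS-KO D3 was at least 2.56-fold higher than NS-KO D0 and at least 5.2-fold higher than WT D3. Its fitted interaction of 3.52 (limma adjusted p = 0.00333) depends on the prior count. The sum reached the CPM set for testing in NS-KO D3 only.

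tRF-1 Met-CAT, whose most read sequence is the trailer of the initiator tRNA, was the only tRF-1 sum called lower with TMM scaling. It was at 8396 and 10459 CPM in WT D0 and 33638 and 12085 CPM in WT D3. It fell in NS-KO from 47813 and 62616 CPM at D0 to 10404 and 15480 CPM at D3, where NS-KO overlapped with WT D3. The interaction was -1.74 ± 0.46 (limma adjusted p = 0.0337), and -3.21 with library size only. The call was lost when any 1 library other than WT D3 replicate 2 was left out (limma adjusted p of 0.0602 to 0.131), and also with the 8 libraries fitted alone, the replicate number as a block or TMM factors from nuclear sequences (0.0612, 0.0505 and 0.0774). The printed trailer had 1213 and 1165 reads in NS-KO D0, 751 and 670 in NS-KO D3, 723 and 556 in WT D0 and 878 and 814 in WT D3, with an interaction of -1.95 ± 0.37 (limma over fragments, adjusted p = 0.0147). That call was lost with the 8 libraries alone (0.376), with thinned libraries (0.105), and without either WT D0 library, WT D3 replicate 1, NS-KO D0 replicate 2 or NS-KO D3 replicate 1 (0.0541 to 0.151). For each 1000 reads of tRF-1 Met-CAT there were 4.73 and 6.13 reads of tRF-1 Asp-GTC in NS-KO D0 and 362.8 and 268.4 in NS-KO D3, against 3.58 and 4.14 in WT D0 and 12.0 and 6.85 in WT D3. This pair, of a sum called higher and the one called lower, was chosen after the values had been seen, so the size of its ratios follows from the choice and has no test.

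The 9 tRF-1 isodecoders that the study lists were chosen on these samples. Only Met-CAT of the 9 was called in the interaction, and their median was -0.41, while library size only called 4 of the 9 lower. Gly-TCC had -1.88 (limma adjusted p = 0.15), with 3.75 and 18.6 CPM in WT D0, 269.9 and 56.9 CPM in WT D3, 424 and 256 CPM in NS-KO D0 and 212 and 275 CPM in NS-KO D3. Ser-AGA, Cys-GCA and Arg-CCT had -0.96, -0.85 and -0.41. His-GTG, Ile-AAT, Phe-GAA and Val-CAC had 0.82, 0.74, 0.63 and 0.55. None of these 8 passed the test, with adjusted p of 0.15 to 0.82 by limma. The 68 synthetic tRF-1 sequences of the study were also chosen on these samples. Of these, 66 are in the table and 61 could be tested. Of the 61, 15 (24.6%) were higher and none lower, against 5.28% and 0.14% of all fragments, and their median interaction was 1.19. Several of the 15, among them tRF-Gln-CTG-026, met the CPM filter through NS-KO D3 alone, so nothing is read from this share. Scaled by library size only, 6 were higher.

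Fragments from the 3′ end of nuclear tRNAs had a negative median. None of 55 sums was higher, against 10.7% of all sums, and 2 (3.64%) were lower, against 1.78%. Their median was -0.79, and library size only gave 18 lower. tRF-3b Glu-TTC was at 75.1 and 142 CPM in WT D0 and 1239 and 439.6 CPM in WT D3, and this was the 1 sum called within WT. In NS-KO it was at 678 and 724 CPM at D0 and 411 and 369 CPM at D3, and the interaction was -2.11 ± 0.50 (limma adjusted p = 0.0191). tRF-3b shared by Ala-CGC and Ala-TGC had -1.63 (limma adjusted p = 0.0426), and this call was lost when any 1 of the 8 libraries was left out (limma adjusted p of 0.0622 to 0.156), with the 8 libraries alone, the replicate block, at least 10 reads as the only filter or TMM factors from nuclear sequences (0.0511 to 0.0869). The tRF-3b Glu-TTC call was lost when any 1 library other than WT D3 replicate 2 or NS-KO D3 replicate 1 was left out (limma adjusted p of 0.0515 to 0.0869), and with thinned libraries (0.123).

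Leucine 5′ fragments were the other sums called lower. tRF-5b shared by Leu-CAA and Leu-CAG went from 311 and 405 CPM to 36.1 and 47.1 CPM in NS-KO, and was at 37.5 and 80.5 CPM in WT D0 and 221 and 62.1 CPM in WT D3. Its interaction was -2.32 ± 0.50 (limma adjusted p = 0.0125). tRF-5b of Leu-CAG alone had -2.09 (limma adjusted p = 0.0385), with 706 and 724 CPM in NS-KO D0 and 108 and 110 CPM in NS-KO D3. The first call was lost without WT D0 replicate 1, WT D3 replicate 1, NS-KO D0 replicate 2 or NS-KO D3 replicate 1 (limma adjusted p of 0.0577 to 0.0794). The second was lost when any 1 library other than WT D0 replicate 1 or WT D3 replicate 1 was left out (limma adjusted p of 0.0622 to 0.146), and also with the 8 libraries alone, perfect matches only or the replicate block (0.066, 0.0613 and 0.0511).

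At the level of single fragments, 22065 distinct sequences were tested, and 1166 (5.28%) were higher and 31 (0.14%) lower. Within WT no fragment was called at D3 by limma, with 391 higher and 308 lower at an unadjusted p under 0.05, while 2210 (10%) were higher and 192 (0.87%) lower within NS-KO. With TMM scaling both NS-KO D3 libraries lay above the other 10 in 1141 of the 1166 and in 12.4% of all fragments. The 1166 were chosen by a contrast that uses these libraries, so nothing is read from the 1141. With library size only 266 (1.21%) were higher and 17 (0.077%) lower, and with reads outside tRF-5c as totals 200 (0.906%) and 5 (0.0227%). The limma count of 1197 was 144 when WT D0 replicate 1 was left out and 4060 when NS-KO D0 replicate 1 was. Of the 1166, 1068 were mitochondrial, against 7099 of the 22065 tested, and 1087 were Other. mt-His-GTG gave 309 of them, mt-Ser-TGA 129, mt-Glu-TTC 108 and mt-Ala-TGC 91. Gly-CCC gave 22, the most of any nuclear isodecoder. The called fragments had a median of 18 reads over the 8 libraries, against 4 for all tested, and 985 of the 1166 had no read in either NS-KO D0 library, against 9402 of the 22065 tested. A fragment without reads at NS-KO D0 can pass the CPM filter through NS-KO D3 alone.

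The fragments with the smallest p among those of 100 or more reads came from mt-Cys-GCA, mt-Gly-TCC and mt-Glu-TTC. The printed mt-Cys-GCA fragment had 96 and 107 reads in NS-KO D3 and 1 read in the other 10 libraries together, with an interaction of 5.60 ± 0.47 (limma over fragments, adjusted p = 0.00263). Longer forms that start at the same base had 4.46 and 4.71. The fragments of mt-Gly-TCC and mt-Glu-TTC had 5.01 and 4.37. All 5 of these fragments had 0 reads in both NS-KO D0 libraries, so the sizes of their fitted interactions depend on the prior count. They met the CPM filter and the minimum of 100 reads through NS-KO D3 alone, so nothing is read from their rank or p. Among those with the smallest p in the other direction, the Met-CAT trailer of 15 nt had -1.83 (limma adjusted p = 0.0365). This call was lost when any 1 library was left out (0.0703 to 0.252), with the 8 libraries alone (0.423), and with thinned libraries, stricter CPM filters, the replicate block or other TMM sets (0.0558 to 0.0816). A mismatched form of the mt-Val-TAC fragment and a His-GTG precursor fragment had -1.80 and -2.98 and were not called.

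Shares of all reads by class were compared with an exact two-sided permutation test over 36 arrangements, in which the smallest p is 0.05556. In WT tRF-5c took 71.5% and 64.4% of reads at D0 and 35.6% and 61.5% at D3. In NS-KO it took 15.4% and 12.5% at D0 and 30.4% and 18.03% at D3. The mean share at D3 minus that at D0 was -19.4 points in WT and 10.2 points in NS-KO (exact permutation p = 0.0556, adjusted over 11 classes 0.153). The difference of 29.61 points was 16.67 without WT D3 replicate 1 (exact permutation p = 0.111) and 42.56 without WT D3 replicate 2. The tRF-1 share went from 1.66% and 2.26% to 7.69% and 2.56% in WT and from 8.70% and 10.8% to 4.30% and 4.97% in NS-KO, a difference of -8.25 points at the same p. tRF-3b and tRF-5a differed by -0.559 and -0.614 points at the same p, and tRF-5a by -0.321 without WT D3 replicate 1. In each of these 4 classes the groups of D0 and D3 did not overlap within either genotype. The smallest p requires this, so nothing further is read from it. All mitochondrial reads together differed by -1.42 points (exact permutation p = 0.944). Their parts were set apart after the values had been seen and were not tested. Mitochondrial reads in the precursor only were 18.7% and 22.2% in NS-KO D0 and 6.01% and 7.31% in NS-KO D3. Most of these were mt-Val-TAC reads, at 151800 and 191900 CPM in NS-KO D0 and 37940 and 44030 CPM in NS-KO D3. Whether they come from tRNA precursors was not tested. The remaining mitochondrial reads in NS-KO went from 24.98% and 20.4% to 30.3% and 50.1%. In WT the precursor part was 5.80% and 7.25% at D0 and 10.6% and 5.00% at D3, which overlapped.

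**Figure D5:**
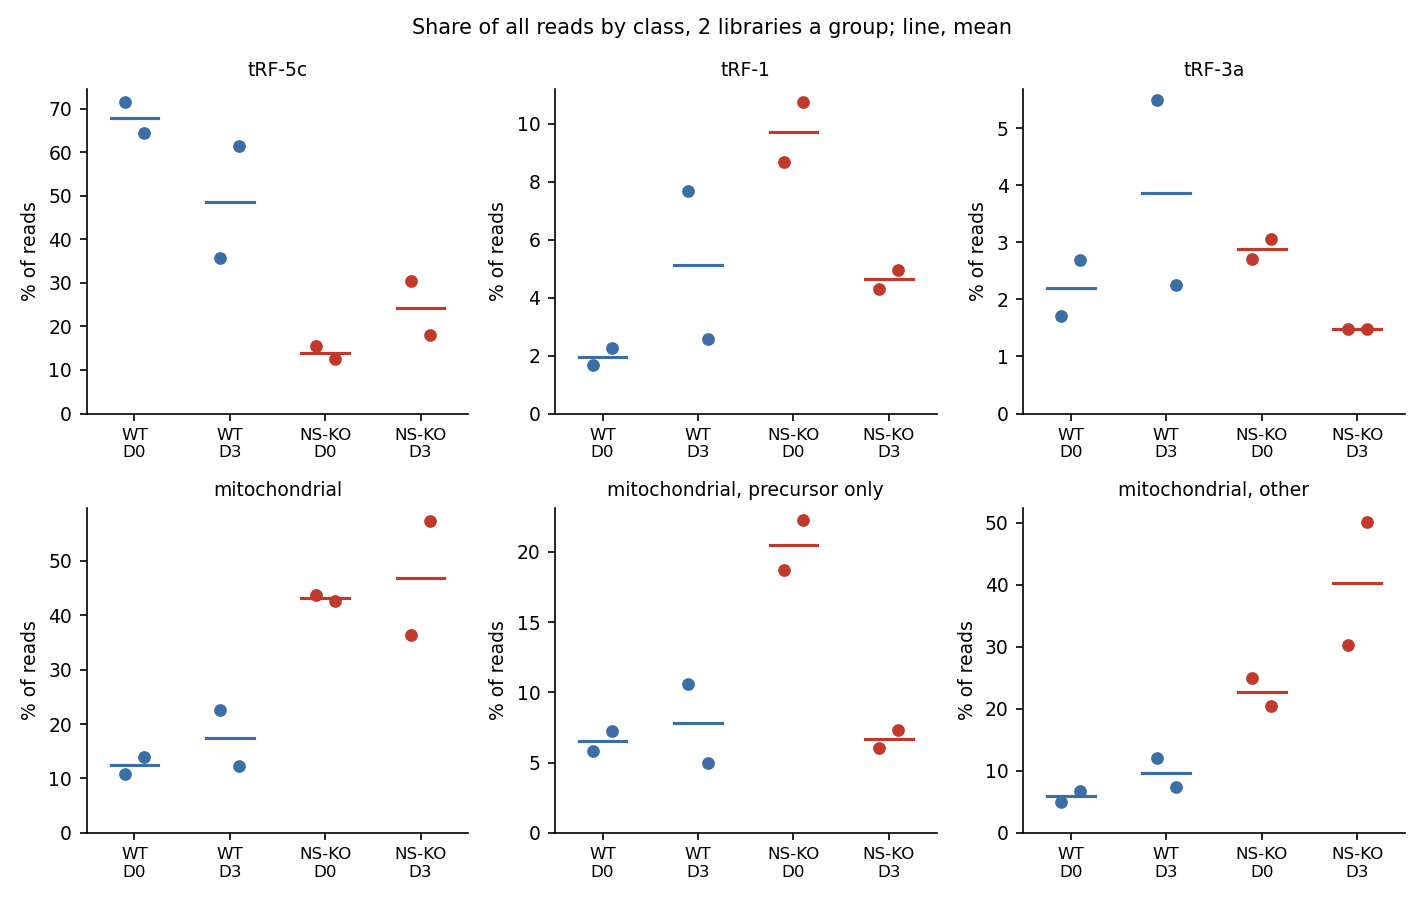
Share of all reads (y axis, %) in 6 classes for WT (blue) and NS-KO (red) at D0 and D3, 1 point a library with the line at the mean. At D3 tRF-5c lies at 35.6% and 61.5% in WT, below both D0 libraries, and at 30.4% and 18.03% in NS-KO, above both D0 libraries, and the mitochondrial precursor share in NS-KO lies at 6.01% and 7.31%.

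The number of tsRNAs at a CPM of at least 20 went from 1844 and 2127 to 4283 and 2776 in WT and from 4259 and 9758 to 4353 and 5590 in NS-KO. The interaction of -3581 had an exact permutation p of 0.278. It was -831.5 without NS-KO D0 replicate 2 and -6330 without NS-KO D0 replicate 1 (exact permutation p = 0.611 and 0.0556). That threshold is met by 1 read in NS-KO D0 replicate 2 but needs 6 in WT D0 replicate 1, and with all libraries thinned to 46937 reads the difference turned to 240.7.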

How the data were processed

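The authors pretreated liver RNA to remove end groups and methylations that block library making, sequenced small RNAs, and processed reads with FastQC, cutadapt and Bowtie, with alignment to mature and then precursor tRNAs. Versions and the genome build are not given in the sources used here. The deposited table lists each sequence with its tRNA, subtype and reads a library, and its values are whole-number read counts, although the authors' file mixes them with text lines, so it was read as a table of another kind of unit. For that reason the edgeR test named in the methods was not run.

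Each of the 87699 sequences (1705883 reads) was counted once, and 31 found under both Other and a named subtype took the named one. Log2 CPM (TMM factors, prior count 2) was fitted with limma 3.58.1 (R 4.3.3) with a trend over 12 libraries in 6 groups, with 6 residual degrees of freedom and Benjamini-Hochberg adjustment over all features. A sum needed 10 reads in all and the CPM of 10 reads at the median library size in at least 2 libraries, and a fragment needed a CPM of 20 in at least 1 library. Shares and numbers were tested by exact permutation. The fits were tested on simulated data. Intervals cover the spread between these libraries, reads carry no molecular identifiers, and a floor of 3 reads covers counting error only. Named sums were the 15 with the smallest p in each direction among those called, the 6 most read, and the study's tRF-1 isodecoders with Gln-CTG and Asp-GTC. Named fragments were the 5 with the smallest p in each direction at 100 reads or more, and the study's tRF-Gln-CTG-026 and tRF-Met-CAT-049. The most read one of each sum described was also named, but for the glycine tRF-5c sums a perfect match that was not the most read was printed. The members, lists and comparisons were chosen with earlier results of these data known. Alternatives changed scaling, model, libraries, prior count, depth, mismatches, filters and replicates.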

Additional observations from a re-analysis of the deposited data

Results flagged for a closer look

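The results here are those in which the change from D0 to D3 differed between NS-KO and WT, by the limma test of that difference or, for shares of reads, because each library of WT moved one way and each library of NS-KO the other. Groups of 2 libraries were not tested for a library that stands apart.

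The limma test called 30 sums higher and 5 lower, and 1166 fragments higher and 31 lower. Among mitochondrial sums the log2 differences were 4.77 for Other mt-Pro-TGG, 4.39 for Other mt-Ala-TGC, 4.16 for Other mt-His-GTG, 3.45 for Other mt-Ser-TGA, 3.40 for Other mt-Asn-GTT, 2.21 for Other mt-Met-CAT and 1.97 for Other mt-Gly-TCC. The 5′ fragments of mitochondrial tRNAs differed by 4.44 for tRF-5b mt-Ser-TGA, 3.96 for tRF-5b mt-Gln-TTG and 2.38 for tRF-5c mt-Gln-TTG. Nuclear tRF-5c differed by 6.15 for Gly-CCC, 3.85 for Gly-GCC and 3.62 for Val-CAC. tRF-1 differed by 3.83 for Gly-CCC, 3.52 for Lys-TTT, 3.43 for Gln-CTG, 2.98 for Asp-GTC and -1.74 for Met-CAT. The tRF-1 sums of Gly-CCC and Lys-TTT met the filter only because of NS-KO D3. The remaining lower sums had -2.32 for tRF-5b Leu-CAA/Leu-CAG, -2.09 for tRF-5b Leu-CAG, -2.11 for tRF-3b Glu-TTC and -1.63 for tRF-3b Ala-CGC/Ala-TGC. Single fragments had 5.60, 4.46 and 4.71 for mt-Cys-GCA, 5.01 for mt-Gly-TCC and 4.37 for mt-Glu-TTC, and these 5 met the filters through NS-KO D3 alone. In the other direction the values were -1.95 and -1.83 for the Met-CAT trailer and -1.31 for the fragment after mt-Val-TAC.

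Of the shares of reads, tRF-5c differed by 29.61 points, tRF-1 by -8.254, tRF-5a by -0.614 and tRF-3b by -0.5585. These differences between genotypes had the smallest p the exact permutation test can give, 0.05556, which the way they were chosen fixes. They did not pass after adjustment.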

How the results depend on the processing

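Against 35 called sums, library size only called 65 (14 higher, 51 lower), and leaving out 1 of the 8 libraries in turn gave 11 to 38. The count was 11 without NS-KO D0 replicate 2, 14 without WT D0 replicate 1 and 22 without WT D0 replicate 2 or WT D3 replicate 1. Against 1197 called fragments, library size only called 283, reads outside tRF-5c as totals 205, the 8 libraries alone 540 and a CPM of 100 in at least 1 library 644, where fewer fragments were tested. Leaving out 1 library gave 144 to 4060 fragments, with 144 without WT D0 replicate 1, 264 without WT D0 replicate 2, 171 without WT D3 replicate 1, 4060 without NS-KO D0 replicate 1, and 2632 and 1904 without NS-KO D3 replicate 1 and 2. The causes of these moves were not tested. No call was made in the opposite direction under any alternative run. The value of Other mt-Thr-TGT, called at 1.29, was -0.16 by library size only, and 1175 of the 1197 fragments kept their sign when libraries were thinned. Of 22 named sums that were called, 8 kept their call and direction in all alternatives run: Other mt-Pro-TGG, mt-His-GTG and mt-Ser-TGA, tRF-1 Gln-CTG and Lys-TTT, tRF-5b mt-Gln-TTG and mt-Ser-TGA, and tRF-5c Gly-CCC, and 15 kept it under every scaling. The tRF-1 Lys-TTT sum met the filter through NS-KO D3 alone, and its value ran from 1.86 to 5.88 over the alternatives. Nothing is read from its place among the 8.

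Deviations of samples with the same replicate number had correlations of -0.30 to 0.50 over 15 pairs of groups, with 4 above 0.1. With 2 libraries a group these values cannot settle whether the numbers pair the samples, which were fitted as unpaired. With the replicate number as a block, 27 sums (25 higher, 2 lower) and 903 fragments were called. The edgeR test was not run.

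Shares turned in sign as follows. The mitochondrial share (main -1.417 points) was 4.207 with perfect matches only, 15.68 of reads outside tRF-5c, and -11.94 to 9.102 when 1 library was left out. The Other share (main -18.24) was 7.495 of reads outside tRF-5c. The small tRF-2 share was -0.8221 on the log2 scale and -0.01462 to 0.01515 with 1 library left out, and the tRF-5b share -0.06475 on the log2 scale and -0.0408 to 0.3516 with 1 left out. Numbers of tsRNAs turned to 240.7 for all and to 134.1 for tRF-5c, 33.03 for tiRNA-5 and 630.5 for Other when libraries were thinned. At a CPM of 50 they turned to 1.0 for tRF-2, 30.5 for tRF-5c and 6.0 for tiRNA-5, and with perfect matches to 0.5 for tiRNA-5. With 1 library left out the number of tRF-5c ranged from -190.5 to 39.5. Depth limits the rare fragments most, since 3 reads are 10.9 to 63.9 CPM over the libraries.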
